A study of Drosophila melanogaster with 2 samples.

Results

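The vacuolar proton ATPase (V-ATPase) was described here by the 33 genes whose symbol starts with Vha, out of the 13623 genes with an expression value. All rows with such a symbol were taken, whatever their level. Of the 33 genes, 16 were classed as ubiquitous, that is the sole gene of a subunit or its widely used copy, and 17 as tissue-restricted further copies, from general knowledge of the family. CG31030, whose present symbol is VhaAC45RP, falls outside this rule and was looked up after its values were known: it stood at 3.83 FPKM (GNP) and 33.6 FPKM (glia).

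Nuclear RNA was sequenced from 1 library of Gcm-expressed neural progenitor nuclei (GNP) and 1 library of glial nuclei. The GNP nuclei came from embryos aged 5 to 7 h that carried gcm-Gal4 and UAS-mCDGFP with the balancer cyo, and the glial nuclei from embryos aged 12 to 14 h that carried repo-Gal4 with the balancer Tm3B. The labels and the methods give these same ages but differ in the hours of development after collection. Both lines also carried UAS-3xFLAG-blrp-mCherry-RanGap, a tagged protein of the nuclear envelope by which nuclei were pulled from a homogenate of fixed whole embryos. The driver gcm-Gal4 is known to be active also in the precursors of blood cells, and the repo-Gal4 driver in nearly all glia. Cell type, driver line and embryo age changed together, so their parts in any difference cannot be told apart. With no replicate of either cell type, no difference below has a replicate check or a test, and a difference is called only by its size, at least 2-fold on the scale of log2(FPKM + 1). FPKM counts reads per kilobase of transcript and is scaled to the mapped reads of the library, so that levels of different genes are per length.

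The V-ATPase pumps protons across membranes at the cost of ATP, and it acidifies lysosomes, endosomes and synaptic vesicles. Its V1 sector lies in the cytosol and splits ATP, with a ring of subunits A and B, a rotor of D and F, peripheral stalks of E and G with C at their foot, and the regulatory subunit H. Its V0 sector lies in the membrane and carries the protons, with subunit a as the path for protons, a rotating ring of the proteolipids c and c'', subunit d, which joins the ring to the rotor, and the small subunit e. The sectors can come apart and rejoin, which regulates the pump. In Drosophila many subunits have several genes, of which some copies are used in most tissues and others in few, such as the testis.

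Of the 33 Vha genes, 11 passed 2-fold towards glia, that is were at least that much higher there, as did 21.2% of all genes, and 2 passed it towards GNP, as did 16.4% of all genes. Their median log2 change was 0.23, against 0.04 for all genes. Most of the genes with the higher values in glia belonged to V1. Of the 13 V1 genes 8 were higher and 0 lower, with a median log2 change of 1.23. Of the 18 V0 genes 3 were higher and 2 lower, with a median of 0.11. Both medians rest on low genes. That of V1 is the value of Vha14-2, at 0.225 FPKM (GNP) and 1.87 FPKM (glia). The V0 median lies between Vha100-3 and Vha16-4, both near 0 in each library. Tissue-restricted copies made up 4 of the V1 genes but 13 of the V0 genes, so the sectors also differ in makeup. A limit of 4-fold, passed by 8.46% of all genes towards glia and by 4.51% towards GNP, left only Vha68-1 on the one side and only Vha16-5 on the other.

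**Figure D1:**
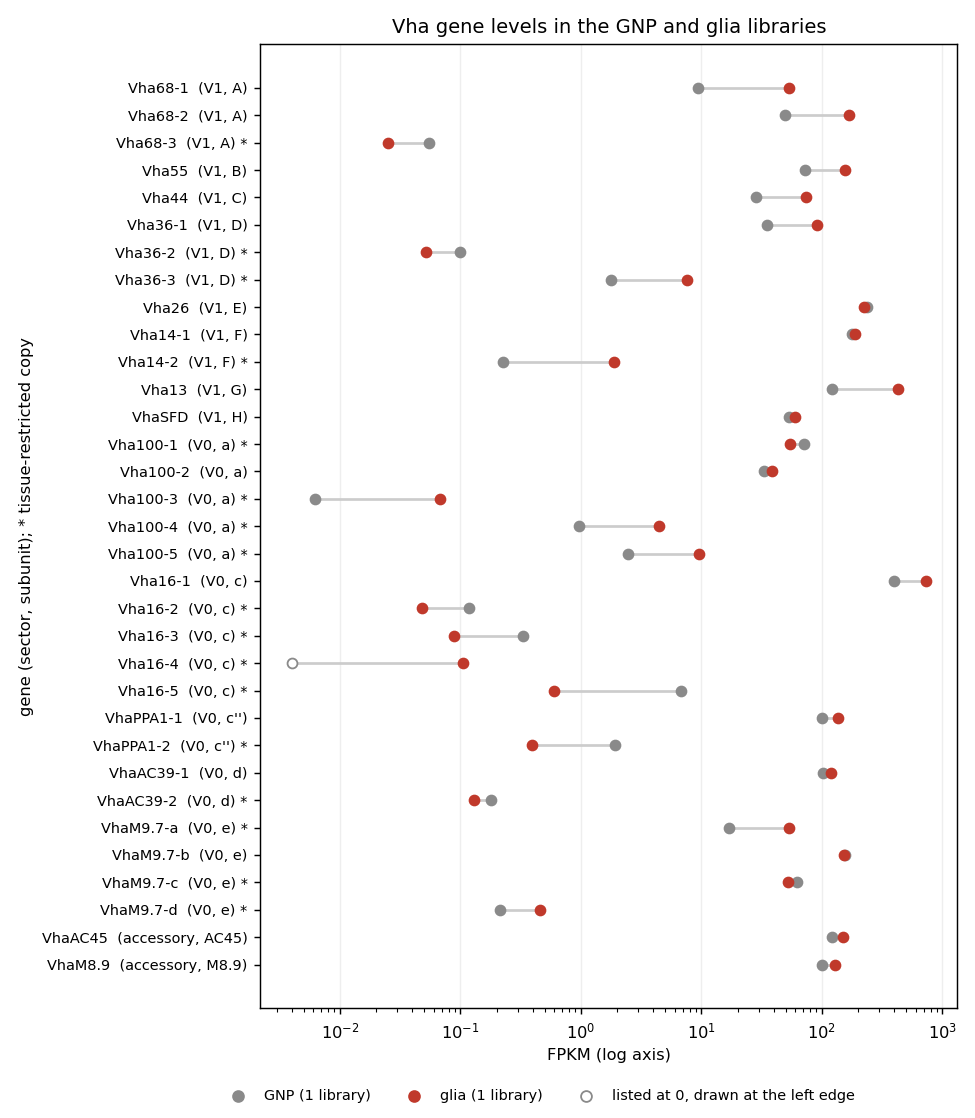
FPKM (log axis) of each of the 33 Vha genes in the GNP library (grey) and the glia library (red), with the sector and subunit in brackets and an asterisk for tissue-restricted copies. The ubiquitous genes lie between 9.43 and 729 FPKM, and most restricted copies lie under 10 FPKM in both libraries.

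The ubiquitous genes all stood above the median gene of each library, with Vha68-1 in GNP the lowest, above 55.3% of all genes there. In GNP they ranged from 9.43 FPKM for Vha68-1 to 394 FPKM for Vha16-1, with a median of 101 FPKM, and in glia from 38.6 FPKM for Vha100-2 to 729 FPKM for Vha16-1, with a median of 144 FPKM. Of these 16, 6 passed 2-fold towards glia and 0 towards GNP. All 16 had a mean over both libraries of at least 20 FPKM, and among the 4743 genes of that level 21.3% were higher and 28.1% lower. The median of these 4743 genes was a log2 change of -0.19, and that of the 16 ubiquitous Vha genes 0.39. The 6 higher genes were all among the 9 ubiquitous V1 genes, whose median was 1.35, and Vha55 dropped out of them under TPM or without ribosomal protein genes in the scaling. None of the 5 ubiquitous V0 genes and neither of the 2 accessory genes reached 2-fold. The V0 median was 0.23, which became -0.022 with TPM, which scales each library to the same sum.

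The catalytic subunit A had the largest ratio of summed levels, 3.73. Vha68-2, its more abundant gene, stood at 49.8 FPKM (GNP) and 168 FPKM (glia), a log2 change of 1.74. Vha68-1 stood at 9.43 FPKM (GNP) and 53.2 FPKM (glia), a log2 change of 2.38 and the largest of the 33, although with a pseudocount of 0.1 Vha14-2 exceeded it, at 2.60 against 2.48. Both genes thus stood higher in glia, and Vha68-1 by more, so that Vha68-2 exceeded it 5.28-fold in GNP and 3.17-fold in glia. Vha55 encodes subunit B, which alternates with A in the ring and also binds nucleotide. It stood at 72.8 FPKM (GNP) and 155 FPKM (glia), and its log2 change of 1.08 lay close to the limit. Under TPM it was 0.83, below 2-fold.

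The rotor subunits D and F differed from each other. Vha36-1, the main gene of subunit D, stood at 34.9 FPKM (GNP) and 91.0 FPKM (glia), a log2 change of 1.36. Vha14-1, the main gene of subunit F, stood at 177 FPKM (GNP) and 188 FPKM (glia), a log2 change of 0.08. The summed level of D was 0.207 times that of F in GNP and 0.521 times in glia, although the rotor holds the same number of each. Here and wherever subunits are compared below, these are levels of nuclear RNA, and the amounts of the protein subunits were not measured.

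The stalk subunits E and G pair with each other in the enzyme, yet their genes differed. Vha13, which encodes G, stood at 122 FPKM (GNP) and 428 FPKM (glia), a log2 change of 1.80, and it was the gene with the second highest level of the family in glia. Vha26, which encodes E, stood at 238 FPKM (GNP) and 225 FPKM (glia), a log2 change of -0.08. Their order was therefore opposite in the libraries, with E at 1.95 times G in GNP and 0.526 times G in glia. Vha44 encodes C, the subunit that leaves the stalk when the sectors come apart. It stood at 28.7 FPKM (GNP) and 74.5 FPKM (glia), a log2 change of 1.35. In the BDGP6 annotation 148 of its exonic bases overlap Hmgs on the opposite strand, which stood at 22.5 FPKM (GNP) and 201 FPKM (glia), and the part of this overlap in the value of Vha44 was not tested. VhaSFD, the gene of the regulatory subunit H, stood at 53.5 FPKM (GNP) and 59.6 FPKM (glia), a log2 change of 0.15.

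**Figure D2:**
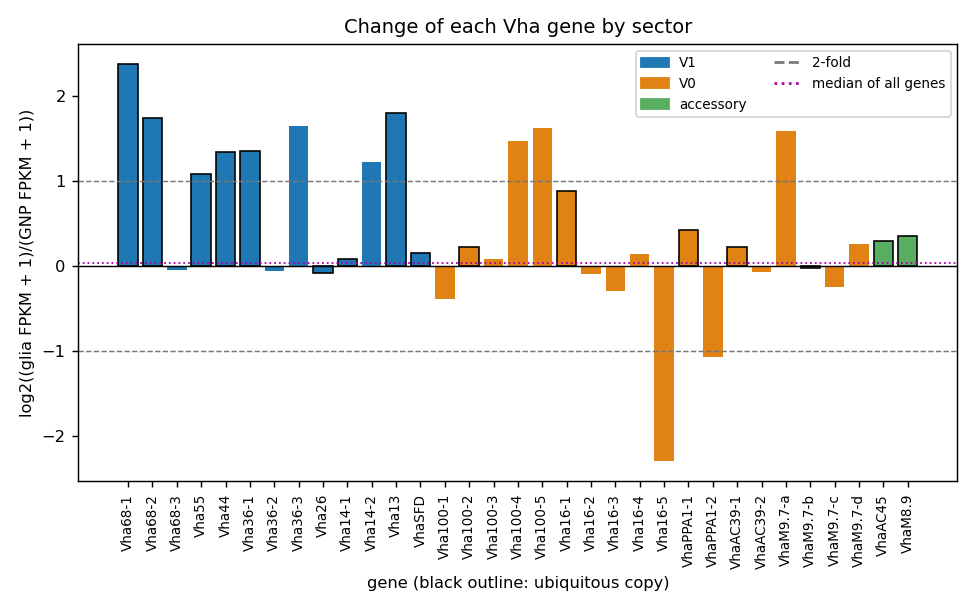
Log2((glia FPKM + 1)/(GNP FPKM + 1)) of each Vha gene, coloured by sector, with black outlines for ubiquitous genes, dashed lines at 2-fold and a dotted line at the median of all genes, 0.04. The outlined V1 genes split into 6 above 2-fold and 3 near 0, and no outlined V0 or accessory gene reaches 2-fold.

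In the membrane sector the proteolipid gene Vha16-1 was the most abundant Vha gene in both libraries. It stood at 394 FPKM (GNP) and 729 FPKM (glia), a log2 change of 0.88, which scaling to the upper quartile took to 1.10, past 2-fold. Subunit c is the one present in many copies in the ring, and its summed level was 3.72 times that of subunit a in GNP and 6.82 times in glia. VhaPPA1-1, which encodes the c'' proteolipid, stood at 101 FPKM (GNP) and 137 FPKM (glia), a log2 change of 0.43.

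The remaining ubiquitous V0 genes were nearly level between the libraries. VhaAC39-1, of subunit d, stood at 102 FPKM (GNP) and 120.0 FPKM (glia), a log2 change of 0.23. Vha100-2, of subunit a, stood at 32.9 FPKM (GNP) and 38.6 FPKM (glia), a log2 change of 0.22. VhaM9.7-b, of subunit e, stood at 155 FPKM (GNP) and 152 FPKM (glia), a log2 change of -0.02. No direction can be given for these 3 genes or for Vha14-1, Vha26 and VhaSFD, because the sign of each turned under another scaling of the libraries. The accessory genes VhaAC45 and VhaM8.9 encode the counterparts of mammalian ATP6AP1 and ATP6AP2, membrane proteins that help the assembly of the pump. VhaAC45 stood at 122 FPKM (GNP) and 151 FPKM (glia), and VhaM8.9 stood at 100.4 FPKM (GNP) and 128 FPKM (glia), with log2 changes of 0.30 and 0.35.

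Summed over its copies, each of the 13 subunits of V1 and V0 could be set beside the others. In GNP the sums ranged 14.0-fold, from 28.7 FPKM for C to 402 FPKM for c, and in glia 12.2-fold, from 59.6 FPKM for H to 730 FPKM for c. The median subunit of V1 lay below that of V0 in GNP, at 66.1 against 108 FPKM, and above it in glia, at 172 against 137 FPKM. Subunits A, B, C, D and G had sums 2.13 to 3.73 times higher in glia, and those of E, F and H lay between 0.945 and 1.11 times their GNP level. The FPKM of all genes together summed to 1.19 times its GNP level. Subunit A stood at 0.815 times B in GNP and at 1.43 times B in glia. Across the 16 ubiquitous genes the Spearman correlation of the level with the length of the longest transcript was -0.30 in GNP and -0.22 in glia. The genes share the libraries and are not replicates.

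**Figure D3:**
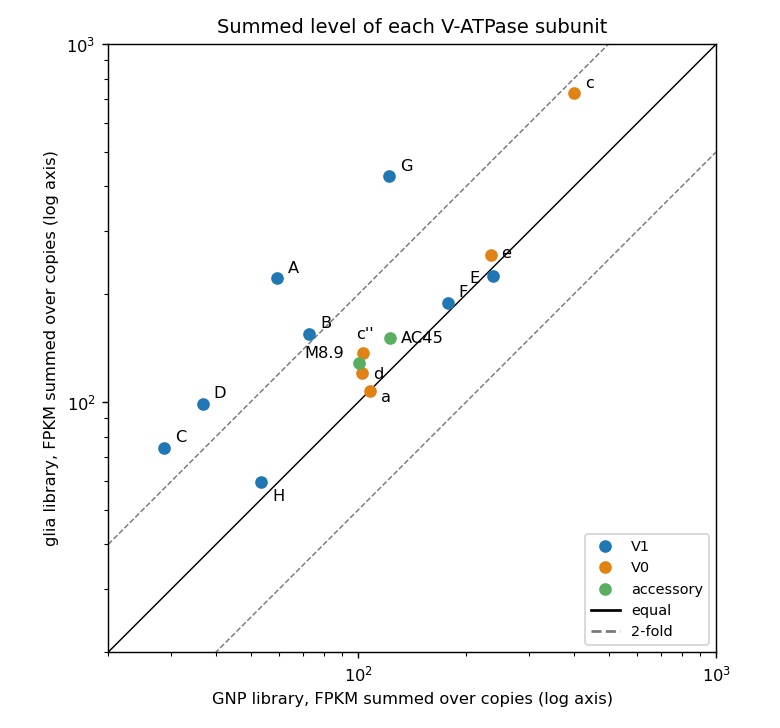
FPKM summed over the gene copies of each subunit in the GNP library (x axis) and the glia library (y axis), both on log axes, with a solid line at equal levels and dashed lines at 2-fold. Subunits A, B, C, D and G lie above the upper dashed line, c lies just under it at 1.82-fold, and the other points lie close to the line of equal levels.

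The tissue-restricted copies were mostly low, and their class held for 14 of 17 genes in the sense that their mean over both libraries was under 10 FPKM. These 14 genes summed to 15.1 FPKM in GNP and 25.5 FPKM in glia, against 1795 and 2897 FPKM for the ubiquitous genes. The exceptions were Vha100-1, VhaM9.7-a and VhaM9.7-c, with 17.1 to 71.5 FPKM in GNP and 51.9 to 54.3 FPKM in glia. Of these 17, 5 passed 2-fold towards glia and 2 towards GNP, against 21.2% and 16.4% of all genes, and their median log2 change was -0.04. That median rests on genes near 0, whose changes the pseudocount of 1 makes small.

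Vha100-1, the copy of subunit a known for its role in neurons and synaptic vesicles, was the main copy of its subunit in both libraries. It stood at 71.5 FPKM (GNP) and 54.3 FPKM (glia), a log2 change of -0.39 that did not reach the limit. It thus exceeded the ubiquitous Vha100-2 by 2.18-fold in GNP and 1.41-fold in glia. Its share of the sum of subunit a was 66.3% in GNP and 50.8% in glia, while that of Vha100-2 was 30.5% and 36.1%. The rest of the difference was taken by lower copies. Vha100-5 stood at 2.45 FPKM (GNP) and 9.57 FPKM (glia), a log2 change of 1.62, and Vha100-4, known from the acid-secreting midgut, stood at 0.961 FPKM (GNP) and 4.42 FPKM (glia), a log2 change of 1.47. Summed over its copies, subunit a reached 108 FPKM (GNP) and 107 FPKM (glia), so that its copies differed while their total was nearly level. Exons of Vha100-5 overlap an antisense RNA gene by 527 bases and those of Vha100-4 overlap cona by 47 bases, and without a stated use of strand the reads of such pairs cannot be told apart.

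Subunit e showed the same kind of change in its makeup. VhaM9.7-a stood at 17.1 FPKM (GNP) and 53.3 FPKM (glia), a log2 change of 1.58, and its share of the sum was 7.30% in GNP and 20.7% in glia. VhaM9.7-c stood at 62.0 FPKM (GNP) and 51.9 FPKM (glia), a log2 change of -0.25, with shares of 26.5% and 20.1%. The ubiquitous VhaM9.7-b kept the largest share, 66.1% in GNP and 59.1% in glia. VhaM9.7-c lies within introns of Teh2 and CG18675 in BDGP6, so reads from their unspliced nuclear RNA could in principle fall on it, which was not tested. In glia, where VhaM9.7-c was at 51.9 FPKM, Teh2 was at 7.56 FPKM and CG18675 at 5.82 FPKM.

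**Figure D4:**
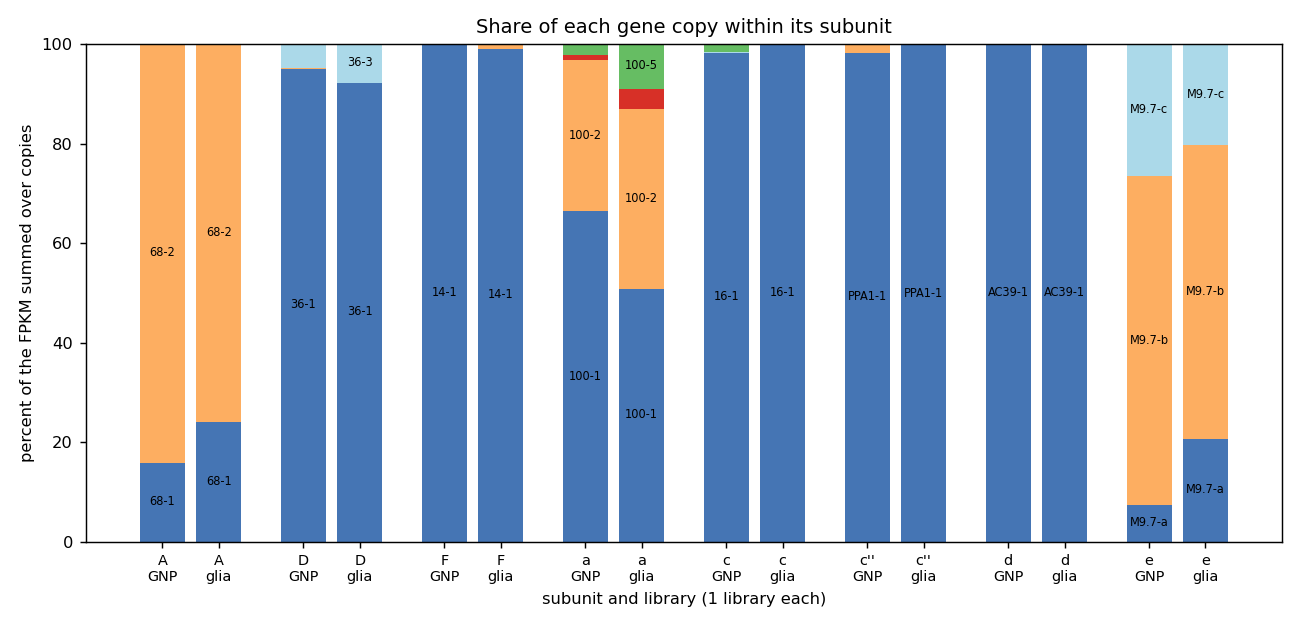
Percent of the FPKM summed over the copies of each multi-gene subunit that each copy made up, for the GNP and the glia library. In subunits D, F, c, c'' and d a single copy made up 92.2% to 99.9% in both libraries, while A, a and e were divided among several copies.

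In the other multi-gene subunits the main copy dominated. Vha36-1 made up 94.9% of subunit D in GNP and 92.2% in glia, where Vha36-3 was its second copy. Vha36-3 stood at 1.77 FPKM (GNP) and 7.66 FPKM (glia), a log2 change of 1.64, so that both expressed genes of D were higher in glia. Vha14-2 stood at 0.225 FPKM (GNP) and 1.87 FPKM (glia), a log2 change of 1.23, and still made up only 0.987% of subunit F in glia. With a pseudocount of 5 only VhaM9.7-a of the 5 higher restricted genes stayed past the limit.

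Both genes past 2-fold towards GNP were proteolipid copies. Vha16-5 stood at 6.82 FPKM (GNP) and 0.593 FPKM (glia), a log2 change of -2.29, or 0.0870 times its GNP level. VhaPPA1-2 stood at 1.92 FPKM (GNP) and 0.391 FPKM (glia), a log2 change of -1.07, which a pseudocount of 5 brought to -0.36. Their main copies were not lower in glia, and even in GNP Vha16-5 made up 1.70% of subunit c and VhaPPA1-2 made up 1.86% of c''. Vha16-5 overlaps no exon of another gene in the annotation, which says nothing of introns of other genes. The last 12 bases of VhaPPA1-2 are shared with CG3817 on the opposite strand.

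The other 7 copies that stayed under 0.35 FPKM in both libraries held few reads. From the depth estimated from the steps of low values, 63.95 M mapped reads in GNP and 52.4 M in glia, Vha68-3 had 8 reads in GNP and 3 in glia, a ratio of levels of 0.458 with a 95% interval from 0.0782 to 1.91. Vha36-2 had 7 and 3 reads, a ratio of 0.523 with an interval from 0.0873 to 2.29. VhaAC39-2 had 12 and 7 reads, a ratio of 0.712 with an interval from 0.237 to 1.96. Each of these intervals, which cover counting error only, includes equal levels. Vha16-2 had 3 reads in GNP and 1 in glia, a ratio of 0.407 with an interval from 0.00775 to 5.07, and 503 of its exonic bases overlap an antisense RNA gene. Vha16-3 stood at 0.330 FPKM (GNP) and 0.0882 FPKM (glia), which came to 9 and 2 reads when rounded, a ratio of 0.271 with an interval from 0.0285 to 1.31. Vha16-4 was listed at 0 in GNP and had 2 reads in glia, so no fold is given. Vha100-3, which lies within an intron of sano, was the exception. It stood at 0.00617 FPKM (GNP) and 0.0678 FPKM (glia), which came to 1 and 10 reads when rounded, a ratio of 12.2 with an interval from 1.74 to 530 that does not include equal levels. The estimate for glia, 9.73 reads, was not close to a whole number, and sano itself stood at 10.4 FPKM (GNP) and 22.8 FPKM (glia). The part of unspliced sano RNA in the value was not tested. VhaM9.7-d, slightly above these genes in glia, had 4 reads in GNP and 7 in glia, a ratio of 2.14 with an interval from 0.543 to 9.95. For the genes whose interval includes equal levels, a difference between the libraries was not detectable at this depth.

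Several copies are neighbours in the genome, and some neighbours differed in level and in change. In BDGP6, a later build than the annotation of the authors, the subunit A genes lie on chromosome 2L, Vha68-2 from 12974322 to 12978607 on the plus strand, Vha68-3 from 12978786 to 12981293 on the same strand, and Vha68-1 from 13000770 to 13004107 on the minus strand. Only 178 bases separate Vha68-2, at 168 FPKM in glia, from Vha68-3, at 0.0253 FPKM. On chromosome 3R 517 bases lie between Vha100-4 and Vha100-2, of which the former was at 4.60 times its GNP level in glia and the latter at 1.17 times, a difference that turned in sign under another scaling. Also on 3R, 2052 bases lie between VhaPPA1-2 and VhaPPA1-1, at 0.204 and 1.35 times their GNP level. Vha16-3 and Vha16-2, 985 bases apart on 3L, were alike in that both stayed under 0.35 FPKM in each library. The expressed proteolipid copy Vha16-1 and the lower copy Vha16-5 lie on different arms, 2R and 2L. Reads that map equally well to copies of a subunit were not used by the authors, so that copies of similar sequence may be understated.

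Lists of genes that work with the pump were set beside it. Of 9 genes for the assembly and regulation of the V-ATPase 1 passed 2-fold towards glia and 0 towards GNP, against 21.2% and 16.4% of all genes. Their median log2 change was 0.17. The higher gene was Mitf, whose protein is known in Drosophila to activate V-ATPase and lysosomal genes. It stood at 5.56 FPKM (GNP) and 26.4 FPKM (glia), a log2 change of 2.06. Rbcn-3A and Rbcn-3B encode the complex that rejoins V1 to V0. Rbcn-3A stood at 10.2 FPKM (GNP) and 8.15 FPKM (glia), and Rbcn-3B at 9.81 and 7.27 FPKM. CG14184, of the Ragulator complex that the pump binds on lysosomes, had the lowest change, -0.57, at 85.2 FPKM (GNP), the highest level of the list there, and 57.2 FPKM (glia). In glia CG5110 was slightly above it, at 59.3 FPKM.

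Of 14 lysosomal genes 2 were at least 2-fold higher and 2 lower, against 21.2% and 16.4% of all genes, with a median log2 change of 0.25. Hexo2, a hexosaminidase, stood at 5.44 FPKM (GNP) and 30.9 FPKM (glia), and spin, a lysosomal efflux carrier, at 18.6 and 61.2 FPKM. On the other side cathD, the protease cathepsin D, stood at 262 FPKM (GNP) and 78.6 FPKM (glia), and the chloride transporter gene ClC-c at 46.9 and 16.4 FPKM. Lamp1, a lysosomal membrane protein, had the highest level of the list, with 481 FPKM in GNP and 441 FPKM in glia. None of Lamp1, cathD, Cp1, CtsB1 and Npc2a, the most abundant genes of the list in GNP, passed 2-fold towards glia.

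The mitochondrial F-type ATP synthase, a rotary enzyme related to the V-ATPase that makes ATP, served as a comparison. Of 13 listed genes for it 4 passed 2-fold towards glia, against 21.2% of all genes, and 0 towards GNP, with a median log2 change of 0.74. The 13 lack ATPsyn-C and ATPsyn-O, whose symbols were not matched. They include CG5389, which was near 0 at 0.0254 FPKM (GNP) and 0.145 FPKM (glia). ATPsyn-gamma, the rotor subunit of the enzyme, had the largest change, from 91.3 FPKM in GNP to 386 FPKM in glia. The smallest was that of l(1)G0230, 396 FPKM in GNP and 402 FPKM in glia. The summed level of the ATP synthase genes was 1.79 times higher in glia, and that of the ubiquitous Vha genes 1.61 times. For the sum over all genes the ratio was 1.19.

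Vesicular transporters use the proton gradient that the V-ATPase makes to fill synaptic vesicles. Of 5 such genes 4 passed 2-fold towards glia, against 21.2% of all genes, with a median log2 change of 1.98. With a pseudocount of 5 these became 2 genes and 0.98. VAChT, the acetylcholine transporter, stood at 1.76 FPKM (GNP) and 22.9 FPKM (glia), and prt was the lowest, at 0.235 and 1.03 FPKM. Of 5 proton exchanger genes 1 was at least 2-fold higher and 1 lower, against 21.2% and 16.4% of all genes. Nhe3 was the higher, at 11.2 FPKM (GNP) and 23.5 FPKM (glia), and Nha2 the lower, at 3.99 and 0.357 FPKM. The call of Nhe3, which lay at the limit, was lost with a pseudocount of 5, centred on the median gene, under TPM and without ribosomal protein genes in the scaling.

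**Figure D5:**
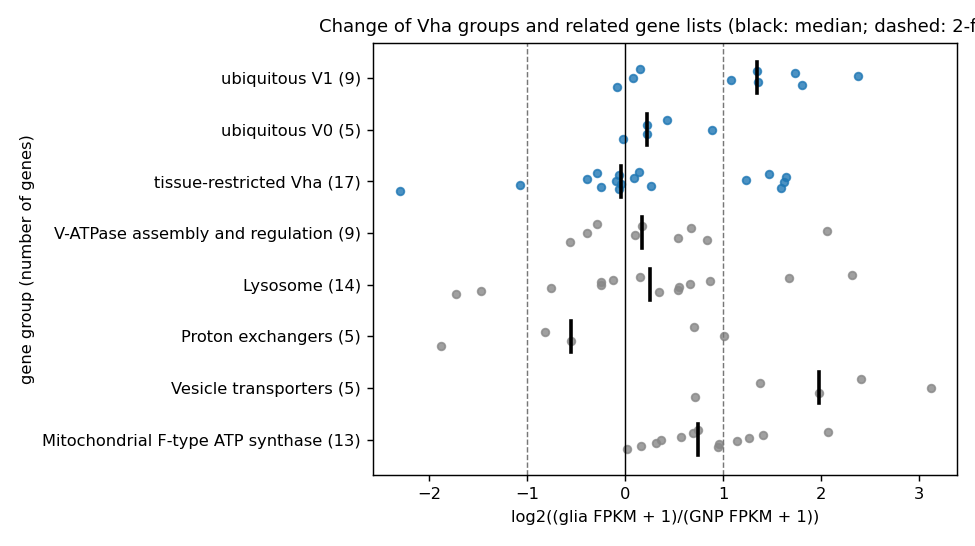
Log2((glia FPKM + 1)/(GNP FPKM + 1)) of each gene (points) in 3 Vha groups and 5 related lists, with the number of genes in brackets, a black line at each median and dashed lines at 2-fold. The ubiquitous V1 genes have a median of 1.35, the ubiquitous V0 genes 0.23 and the lysosomal genes 0.25.

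The labels were checked with markers, whose counts stand against 21.2% of all genes at least 2-fold higher in glia and 16.4% lower. The glial gene repo stood at 3.84 FPKM (GNP) and 32.0 FPKM (glia), and gcm, which starts glial fate, was at 40.2 and 21.5 FPKM. Of 8 neural progenitor markers 6 were at least 2-fold lower in glia, and their levels summed to 383 FPKM (GNP) and 104 FPKM (glia). Of 13 glial markers 6 were higher and 1 lower, with sums of 479 and 647 FPKM. These sums too rested on few genes. The largest differences were those of nrv2, at 98.9 FPKM (GNP) and 216 FPKM (glia), Indy, at 149 and 65.1 FPKM, and moody, at 17.5 and 79.7 FPKM. Whatever the size of the change, 8 of the 13 had higher values in glia and 5 lower, with a median log2 change of 0.36. Some markers of other cells differed in the same direction as the V1 genes: 6 of 6 muscle markers were higher in glia, with sums of 851 and 6000.1 FPKM, and 3 of 5 neuron markers were higher and 1 lower, with 274 and 485 FPKM, as were 3 and 1 of 5 tracheal markers, with 127 and 898 FPKM. The neuron and tracheal sums rested on few genes, picked after the values were seen. Without fne the neuron markers summed to 259 and 158 FPKM, and without Gasp and verm the tracheal markers to 44.5 and 31.8 FPKM. Among the neuron markers Syt1 was also higher in glia, at 3.66 FPKM (GNP) and 29.1 FPKM (glia), and brp at 2.50 and 13.5 FPKM. The more abundant elav and Csp had lower values in glia, at 76.9 and 44.2 FPKM and at 176 and 71.2 FPKM. Of the Malpighian tubule list, a tissue rich in V-ATPase, 3 of 8 genes were higher and 1 lower, with sums of 98.1 and 133 FPKM. Uro, of this list, was near 0 in both libraries, at 0.0585 FPKM (GNP) and 0.0715 FPKM (glia), so nothing about tubule cells can be read from it. The 3 higher genes were cv-c, tio and ClC-a, and the lower one Irk3. The midgut list had 2 of 5 genes higher and 2 lower, with sums of 85.6 and 78.1 FPKM, and the plasmatocyte list 1 of 6 higher, with 86.6 and 108 FPKM, or 76.4 and 52.6 FPKM without Pxn, and a median log2 change of -0.25. The plasmatocyte gene eater was near 0 in both libraries, at 0.0556 FPKM (GNP) and 0 (glia). The plasmatocyte genes srp, at 45.2 FPKM (GNP) and 28.5 FPKM (glia), and crq, at 29.5 and 21.9 FPKM, were present in both. None of 11 testis genes was higher and 2 were lower, with sums of 21.5 and 4.52 FPKM. The 2 lower genes were bam, at 9.23 FPKM (GNP) and 0.316 FPKM (glia), and mia, at 11.0 and 1.54 FPKM. The others were low, at most 0.690 FPKM in GNP (bgcn) and 1.64 FPKM in glia (Mst87F), and the pseudocount of 1 makes such changes small. The part of these cells in the levels of the Vha genes was not tested. In such bulk nuclei, fewer cells of a type and less RNA per cell cannot be told apart.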

How the data were processed

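Expression was measured in nuclear RNA, with 1 library for GNP and 1 for glia. Single-end reads were mapped by the authors to FlyBase transcripts (genome build dm3) with TopHat (version 1.3.1), and Cuffdiff (version 1.3.0) gave the deposited FPKM values, 1 per gene and library, from uniquely mapped reads. The methods call the unit RPKM. Further columns hold the authors' p-value and call for each gene and were not used.

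The change was computed as log2((glia FPKM + 1)/(GNP FPKM + 1)), which understates the change of low genes, and called at 2-fold without a test. Members and lists were chosen with earlier results of these data known. The symbols ATPsyn-C and ATPsyn-O (ATP synthase), trpml (lysosome) and nSyb (neuron) were not matched to an expression value and are left out of their lists. All Vha genes are named. Of the lists of genes that work with the pump the rule named the largest change in each direction and up to 2 further genes of the highest level; any other gene named there, or in the marker lists beside gcm and repo, was chosen after its values were seen.

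Depth was estimated from the steps of low values in genes with 1 transcript of at least 600 bases, assuming fragments of 200 bases. Of the values, 83.3% (GNP) and 84.8% (glia) of those between 0.5 and 6.5 reads lay within 0.1 of a whole read. The estimate was chosen to bring such low values close to whole reads, so these shares are no independent check of it. Reads are given for Vha genes with 1 transcript of at least 400 bases where the estimate lay that close, and rounded for Vha16-3 and Vha100-3. The ratio intervals are exact (Clopper-Pearson). The depth search was tested on simulated data made of whole reads with little noise, which shares its assumption and holds no error in transcript or fragment length. Gene models are those of BDGP6, which held all 33 genes, and no coordinate was converted. Alternatives were pseudocounts of 0.1 and 5, centring, upper quartile scaling, TPM, only genes that averaged at least 1 FPKM, a 1.5-fold or 4-fold limit and, added after the values were seen, scaling without ribosomal protein genes. Computations used matplotlib 3.10.9, scipy 1.17.1, pandas 2.3.3, numpy 2.4.6 and Python 3.11.15.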

Additional observations from a re-analysis of the deposited data

How the results depend on the processing

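Since each cell type has 1 library, none of the alternatives shows whether a difference would recur, and no paired analysis was possible because there are no replicates. Of 675 alternatives to 109 counts, medians, changes and shares, 612 stayed close. That means counts within 1.5 times and shares within 5 percentage points. Changes and medians had to keep the same sign and side of 2-fold, and medians also to stay within 0.25 (log2) or 1.5 times. Some of the 612 could not differ. The filter of at least 1 FPKM cannot alter the change of a gene that passes it, as in 25 of them. Nor can it move results of the ubiquitous genes, which all averaged at least 20 FPKM. The tally is therefore no measure of stability. Scaling shifted glia by 0.21 (log2) with the upper quartile, -0.25 with TPM, -0.04 centred on the median gene and -0.13 without ribosomal protein genes. Under these the count of Vha genes higher in glia was 10 to 12 and that of lower genes 2, and 6 genes turned in sign, each of them under 2-fold. TPM took the median of the ubiquitous genes to 0.14 and that of the ubiquitous V0 genes to -0.022, and the upper quartile put 1 ubiquitous V0 gene past 2-fold; the shift itself accounts for these steps. A pseudocount of 5 left 7 Vha genes higher and 1 lower, of which the restricted copies were 1 and 1, and 1812 of all genes higher, since it holds low genes down. At 4-fold 1 Vha gene was higher, a ubiquitous one, with 0 restricted copies, and 1 restricted copy was lower; of all genes 1153 were higher and 614 lower. Over genes that averaged at least 1 FPKM the median of the restricted copies was 1.23, the value of Vha14-2, which like Vha100-4 passed this filter only through its glia level, so it is given as a value only.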
